A study of Mus musculus with 5 samples.

Results

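The cytosolic heat shock response genes were described in erythroid cells of mouse bone marrow, in Polg mutant mice and in wild-type (WT) mice. They were chosen by name as 10 genes: the transcription factor gene Hsf1, the inducible chaperone and co-chaperone genes Hspa1a, Hspa1b, Hsph1, Hspa4l, Hsp90aa1, Dnajb1 and Bag3, and the constitutive chaperone genes Hspa8 and Hsp90ab1. Of these, 8 had a probe set annotated with their symbol alone, out of 22180 genes measured in this way, and no filter on low values was applied. Hsf1 and Hsp90ab1 were not analysed here, so Hspa8 was the single constitutive gene left to set against 7 inducible ones. Where a gene had several such probe sets, the one with the highest mean over all arrays stood for it.

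Gene expression was measured on 1-colour microarrays, 3 from mice with the genotype Polgtm1Lrsn mt/mt (Polg mutant) and 2 from mice with the genotype Polgtm1Lrsn wt/wt (WT). Polg encodes the mitochondrial DNA polymerase, and the mutant enzyme lacks proofreading, so that mutations collect in mitochondrial DNA. Both groups were on a C57BL/6 background and had been bled, per the series' design text, although the treatment entry of each sample reads none. Both also came from matings in which each parent was Atg7 flox/flox and the male parent carried Epo-cre ki/wt, and the sources used here give neither which offspring inherited Epo-cre nor the ages of the mice. Cells were depleted of CD45-bearing leukocytes and then selected for the erythroid antigen Ter119, and the labels do not say whether each array came from a separate animal. The p-values below therefore cover the spread among these 5 arrays, part or all of which may be technical.

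Heat shock genes are switched on when unfolded proteins accumulate in the cytosol. The factor HSF1, held inactive by chaperones, is then released, assembles into trimers and binds heat shock elements, which are repeats of the bases GAA in alternating orientation. Its targets include the inducible HSP70 chaperones, their J-domain partners, which hand over clients and speed up ATP hydrolysis, and nucleotide exchange factors, which release the clients again. In human erythroblasts HSP70 is known to shield the erythroid factor GATA1 from caspase cleavage.

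The sequence before an annotated transcript start is shown for 5 genes. They were chosen because they went different ways between the genotypes (values below) and because 3 of them hold a pair of inverted GAA units. The 250 bases before the start are from RefSeq (GRCm38.p6), printed 5′ to 3′ on the strand of the gene, with matches to GAANNTTC or TTCNNGAA in capitals.
Hspa1a, chr17:34972157-34972406, minus strand: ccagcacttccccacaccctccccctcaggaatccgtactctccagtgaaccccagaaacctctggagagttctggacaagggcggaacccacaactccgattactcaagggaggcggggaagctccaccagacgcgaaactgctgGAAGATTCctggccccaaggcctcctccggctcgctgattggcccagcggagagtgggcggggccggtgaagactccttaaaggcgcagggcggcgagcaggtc
Hspa1b, chr17:34959239-34959488, minus strand: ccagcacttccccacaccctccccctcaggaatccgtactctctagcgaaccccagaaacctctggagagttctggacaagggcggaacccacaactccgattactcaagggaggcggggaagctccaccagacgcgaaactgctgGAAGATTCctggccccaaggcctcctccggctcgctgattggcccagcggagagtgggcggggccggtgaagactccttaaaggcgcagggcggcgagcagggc
Hsph1, chr5:149636316-149636565, minus strand: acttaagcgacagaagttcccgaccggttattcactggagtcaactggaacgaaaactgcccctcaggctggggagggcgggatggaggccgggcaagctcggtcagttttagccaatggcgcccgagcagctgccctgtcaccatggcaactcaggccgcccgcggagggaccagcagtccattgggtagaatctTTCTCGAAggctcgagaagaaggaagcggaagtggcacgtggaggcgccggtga
Bag3, chr7:128523333-128523582, plus strand: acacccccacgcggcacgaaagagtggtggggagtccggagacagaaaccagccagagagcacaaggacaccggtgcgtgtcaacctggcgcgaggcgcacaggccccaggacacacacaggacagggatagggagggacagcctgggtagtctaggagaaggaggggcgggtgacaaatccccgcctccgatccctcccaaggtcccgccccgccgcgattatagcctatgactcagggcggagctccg
Dnajb1, chr8:83607925-83608174, plus strand: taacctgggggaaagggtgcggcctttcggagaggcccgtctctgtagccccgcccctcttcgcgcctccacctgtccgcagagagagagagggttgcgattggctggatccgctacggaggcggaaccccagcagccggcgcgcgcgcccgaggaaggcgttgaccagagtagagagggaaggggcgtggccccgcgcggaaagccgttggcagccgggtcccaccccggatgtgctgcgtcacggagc

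Hspa1a and Hspa1b differed at 3 of these 250 bases (98.8% identity), and both held GAAGATTC beginning 104 bases before the start. Hsph1 held TTCTCGAA, 54 bases before the start in the window shown and 33 bases before the start in a second window. Both of these Hsph1 starts lie inside the annotated gene (chr5:149616843-149636498, minus strand). Part of each Hsph1 window is therefore within the gene and not upstream of it. Each of the patterns searched, GAANNTTC and TTCNNGAA, is its own reverse complement, so that a search of 1 strand covers both. Of 32851 RefSeq promoter windows of the same length, 6.69% held GAANNTTC, 7.17% held TTCNNGAA and 12.8% held either. Bag3, Dnajb1 and Hspa4l held no match in the windows searched, which says only that these letters are not there. The Hspa4l window (chr3:40745363-40745612) lies wholly inside the annotated gene (chr3:40744500-40796103, plus strand). For Hspa4l, no sequence upstream of the annotated gene was therefore searched. A second Dnajb1 window (chr8:83608298-83608547) also lies inside its gene (chr8:83608175-83612653), while the Dnajb1 window shown lies before it. Promoters were matched for 6 of the 10 genes, and Hspa8, Hsp90aa1, Hsf1 and Hsp90ab1 had none in the table.

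The inducible genes did not move as a block in the Polg mutant. Hspa1b, Hspa1a, Bag3 and Hsph1 were 3.20-fold, 2.58-fold, 2.12-fold and 1.71-fold higher, and for each of these 4 the lowest Polg mutant array exceeded the highest WT array. Dnajb1 and Hspa4l were lower, at 0.803 and 0.828 times the WT level, with every Polg mutant array below both WT arrays. Hsp90aa1 and the constitutive Hspa8 overlapped between the groups. None of the 8 passed limma's test at an adjusted p under 0.05 over all 22180 genes, and neither did any other gene (0% called, smallest adjusted p 0.0851).

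These counts stand beside the same counts over all genes. Groups that did not overlap were found for 8.36% of genes as higher and 9.73% as lower in the Polg mutant. The deposited values hold many exact ties between arrays, and a tie across the groups prevents separation, so the share depends on them. Among the 7112 genes with 5 distinct values, as all 8 measured members had, these shares were 19.7% and 23.7%, against 4 and 2 of the 8 members. At an unadjusted limma p under 0.05, 4 members were higher and 1 lower, where 4.18% and 5.33% of all genes were. The share at that p among genes with 5 distinct values was not counted. The shares at that p, here and below, thus include genes with ties and are not matched for ties to the members or lists. The median difference of the 8 members was 0.50 log2 units, and that of all genes was 0.00. In these bulk samples, fewer cells of a type and less RNA per cell cannot be told apart.

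**Figure D1:**
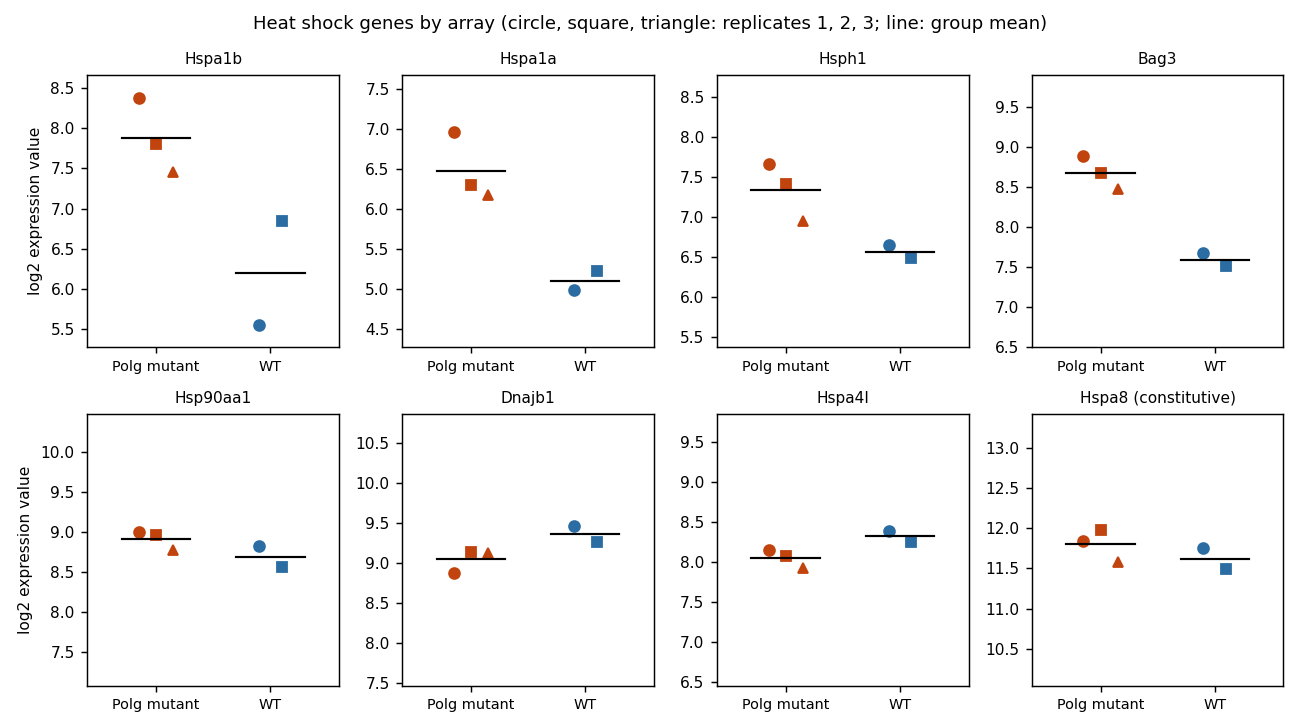
Log2 expression values of the 8 measured heat shock genes on each array, with Polg mutant arrays left of WT arrays and a line at each group mean; every panel spans the same number of log2 units. Hspa1b, Hspa1a, Hsph1 and Bag3 lie higher on every Polg mutant array, Dnajb1 and Hspa4l lie lower, and the groups overlap for Hsp90aa1 and Hspa8.

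The inducible HSP70 genes Hspa1a and Hspa1b lie near each other on chromosome 17 and encode almost the same chaperone, the main HSP70 made after heat or other damage to proteins. Hspa1b had values of 8.38, 7.80 and 7.46 in the Polg mutant arrays, against 5.55 and 6.85 in the WT arrays, on the log2 scale. The WT arrays lay far apart, and the lowest Polg mutant array stood 0.61 above the higher of them. The difference was 1.68 ± 0.54 (SE, limma adjusted p = 0.477), and it was 1.03 without WT replicate 1 and 2.33 without WT replicate 2.

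Hspa1a had values of 6.96, 6.30 and 6.18 in the Polg mutant arrays, against 4.99 and 5.23 in the WT arrays. The groups were well separated, with a difference of 1.37 ± 0.29 (SE, limma adjusted p = 0.302). The WT mean of 5.11 was at the array medians (5.10 to 5.13) and was not shown to be above background, so the fold is not exact. Polg mutant replicate 1 was the highest array for both genes. The probe sets of 2 such similar genes may take up each other's transcripts, and how far they do was not tested. A further probe set annotated with both symbols was not used.

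Bag3 encodes a nucleotide exchange factor that joins HSP70 to small heat shock proteins and to autophagy adaptors. It had values of 8.88, 8.67 and 8.47 in the Polg mutant arrays, against 7.67 and 7.51 in the WT arrays. The gap of 0.80 between the groups was wider than the range of 0.41 within the Polg mutant arrays and of 0.16 within the WT arrays. The difference was 1.08 ± 0.15 (SE, limma adjusted p = 0.236), and it ran from 0.98 to 1.18 when single arrays were left out. In a fit to the genes with 5 distinct values alone, where 1.03% of genes were called higher and 0.576% lower, Bag3 was the 1 member called (limma adjusted p = 0.0470). Bag3 ranked 224th of 22180 genes by p, ahead of every other member when each gene was read by its brightest probe set. In the fit over all probe sets, the dimmer Hspa8 probe set 17434475 had a smaller unadjusted limma p (6.78e-05) than Bag3 (0.00229).

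The HSP110 proteins are large relatives of HSP70 that act as its nucleotide exchange factors, and the 2 inducible genes of this kind went opposite ways. Hsph1 had values of 7.66, 7.42 and 6.95 in the Polg mutant arrays, against 6.65 and 6.49 in the WT arrays. Polg mutant replicate 3 was much nearer to WT than the other Polg mutant arrays were, and the difference was 0.77 ± 0.25 (SE, limma adjusted p = 0.478). Hspa4l had values of 8.15, 8.07 and 7.92 in the Polg mutant arrays, against 8.39 and 8.25 in the WT arrays. Its groups were separated by less than either group's own range, with a difference of -0.27 ± 0.09 (SE, limma adjusted p = 0.505).

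Dnajb1 encodes the J-domain protein HSP40, the usual partner of inducible HSP70 and itself a heat shock gene. Its values were 8.87, 9.14 and 9.12 in the Polg mutant arrays, against 9.46 and 9.26 in the WT arrays. It was therefore lower on the arrays where Hspa1a and Hspa1b were higher, and lowest on Polg mutant replicate 1, where both HSP70 genes were at their highest. The difference was -0.32 ± 0.12 (SE, limma adjusted p = 0.577).

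Hsp90aa1 encodes the inducible form of HSP90, which finishes the folding of kinases and steroid receptors. Its values were 9.0, 8.96 and 8.78 in the Polg mutant arrays, against 8.82 and 8.56 in the WT arrays. Polg mutant replicate 3 lay between the WT arrays, and the difference was 0.22 ± 0.12 (SE, limma adjusted p = 0.638). It was 0.089 without WT replicate 2 and 0.36 without WT replicate 1.

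Hspa8 encodes HSC70, the HSP70 that cells make without stress and that strips clathrin from vesicles and feeds chaperone-mediated autophagy. Its brightest probe set, 17516365, read 11.84, 11.98 and 11.58 in the Polg mutant arrays, against 11.75 and 11.49 in the WT arrays. The groups overlapped and the difference was 0.18 ± 0.16 (SE, limma adjusted p = 0.694). The other probe sets annotated with Hspa8 alone gave another picture.

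Probe set 17548379 read 9.93, 9.92 and 9.41 in the Polg mutant arrays, against 9.02 and 8.89 in the WT arrays. Probe set 17548744 read nearly the same pattern, with 9.88, 9.85 and 9.34 in the Polg mutant arrays, against 8.95 and 8.82 in the WT arrays. Probe set 17434475 read 7.83, 7.80 and 7.88 in the Polg mutant arrays, against 7.06 and 7.10 in the WT arrays. In each of these 3 the groups were fully separated, with Polg mutant higher. Over all genes, each by its brightest probe set, 8.36% were higher without overlap, or 19.7% of those with 5 distinct values. The share over all probe sets was not counted. Since 17548379 and 17548744 read nearly the same pattern, the 3 are not separate observations. The differences of the 3, in the order given, were 0.80, 0.81 and 0.76, against 0.18 for the brightest. The limma adjusted p of the 3 over all probe sets was 0.402, 0.410 and 0.206. The annotation used gives no position for a probe set, so which transcripts each one reads was not known here, and the level of Hspa8 between the genotypes was not settled by these 4.

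**Figure D2:**
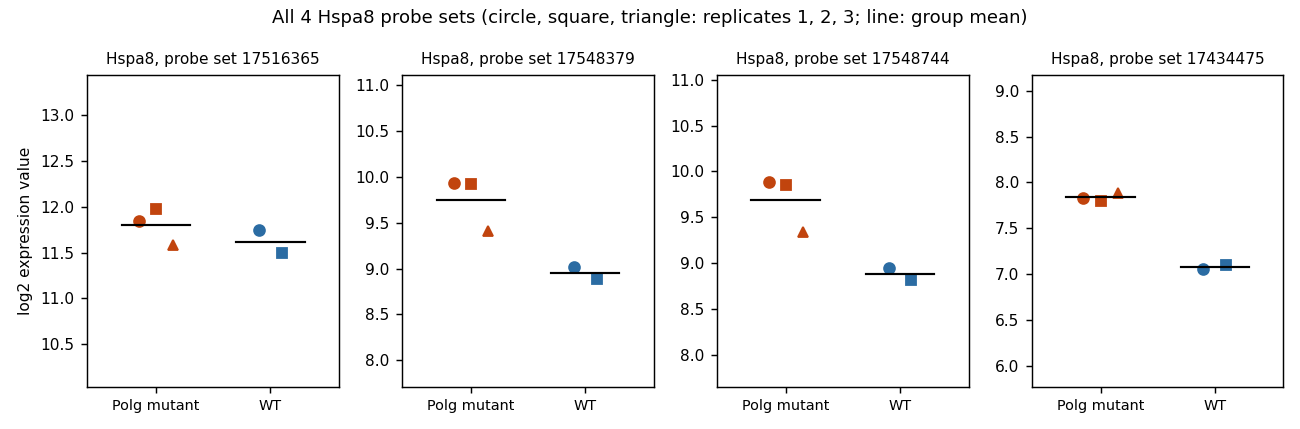
Log2 expression values of the 4 probe sets annotated with Hspa8 alone, brightest at the left, with Polg mutant arrays left of WT arrays and a line at each group mean. The groups overlap in the brightest probe set and are separate in the other 3, where Polg mutant arrays are higher by 0.76 to 0.81 log2 units.

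The contrast of inducible with constitutive genes followed the choice of Hspa8 probe set. For each array, the deviation of every gene from its WT mean was averaged over the 7 inducible genes, and that of Hspa8 was subtracted. With the brightest probe set this gave 0.65, 0.28 and 0.48 in the Polg mutant arrays, against -0.18 and 0.18 in the WT arrays, a mean difference of 0.47 log2 units. The groups did not overlap on this measure. The other Hspa8 probe sets were added after seeing the data. The mean difference was -0.15 with 17548379, -0.16 with 17548744 and -0.11 with 17434475, so its sign turned. With the mean of all 4 probe sets it was 0.014. The 7 inducible genes ran from -0.32 to 1.68 in their own differences.

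Hspa1b and Hspa8, as the inducible and the constitutive HSP70, were also set against each other directly. The difference of their changes was 1.50 log2 units with the brightest Hspa8 probe set (two-sided exact permutation test over arrays, p = 0.1, the smallest that 10 splits of 5 arrays can give). With the other Hspa8 probe sets it was 0.88 to 0.92, with exact permutation p of 0.2 to 0.3. This permutation test thus cannot reach a p under 0.05 for any single pair of genes. The pair of Hsp90aa1 and Hsp90ab1 was not analysed here.

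Other chaperone and co-chaperone genes were counted in the same fit. In the HSP70 and HSP110 family beyond the members, 0 of 7 genes had an unadjusted limma p under 0.05. Over all genes, 4.18% were higher and 5.33% lower at that p. Hspa12b, the gene of smallest p, differed by -0.19 ± 0.11 and Hspa4, the constitutive HSP110 relative, by 0.14 ± 0.09 (SE). Of 22 J-domain co-chaperone genes, 1 was higher and 3 lower at that unadjusted p, where 4.18% and 5.33% of all genes were: Dnajc6, the clathrin-uncoating cofactor auxilin, was higher by 0.57 ± 0.12, and Dnajb3, Dnajb2 and Dnajc9, a histone chaperone, differed by -0.84 ± 0.04, -0.15 ± 0.04 and -0.27 ± 0.09 (SE). Of 7 genes of HSP70 exchange and binding factors, 2 were higher and 0 lower. These were Bag1, by 0.52 ± 0.16, and St13, the Hip protein that steadies HSP70 on its client, by 0.45 ± 0.15 (SE).

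Of 19 HSP90 co-chaperone genes, 0 had an unadjusted limma p under 0.05 in either direction, where 4.18% of all genes were higher and 5.33% lower. The list median was 0.04. Ahsa1, which activates the HSP90 ATPase, came nearest, with 9.0, 8.39 and 8.32 in the Polg mutant arrays, against 7.81 and 7.89 in the WT arrays, a difference of 0.72 ± 0.25 (SE, limma adjusted p = 0.527). Like Hspa1a and Bag3, it was highest on Polg mutant replicate 1. Stip1, which carries clients from HSP70 to HSP90, differed by 0.22 ± 0.13, close to the difference of Hsp90aa1 itself. The 8 small heat shock protein genes had 0 with an unadjusted p under 0.05, which is near those shares for so few genes. Hspb6 had the smallest p and differed by -0.26 ± 0.12 (SE), and Hspb1 read 5.12 on all 3 Polg mutant arrays, against 4.94 and 5.12 in the WT arrays, near the array medians.

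The TRiC chaperonin folds actin and tubulin, and prefoldin delivers them to it. Of 14 measured genes of both, 6 were higher on every Polg mutant array and 0 lower, 3 were higher and 0 lower at an unadjusted limma p under 0.05, and the median difference was 0.19. Over all genes 8.36% were higher without overlap (19.7% of those with 5 distinct values), and 4.18% were higher and 5.33% lower at that p. Cct2 differed by 0.47 ± 0.09, Cct7 by 0.53 ± 0.16 and Tcp1 by 0.20 ± 0.07 (SE). Among 10 heat shock factor and HSF1 regulator genes, 0 were higher and 1 lower at that p, the deacetylase gene Sirt1 at -0.33 ± 0.11. Hsf2, a second heat shock factor, differed by -0.01 ± 0.06, at levels of 4.45 in the Polg mutant and 4.46 in WT, neither shown to exceed background.

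Chaperones of other compartments were counted against the same background of 4.18% of all genes higher and 5.33% lower at an unadjusted limma p under 0.05. Of 8 mitochondrial chaperone genes, 3 were higher and 0 lower at that p, and the median difference was 0.37. The 3 were Hspd1, Hspa9 and Dnaja3. Hspd1 and Hspe1 are also in the list of other heat-induced genes below, so those counts share genes. Hspa9, the mitochondrial HSP70, read 10.28, 10.08 and 10.31 in the Polg mutant arrays, against 9.08 and 9.16 in the WT arrays, a 2.15-fold difference, and Dnaja3, its J-domain partner, was higher by 0.61 ± 0.11 (SE). Of 11 chaperone genes of the endoplasmic reticulum, 0 had such a p in either direction, and Hspa5, its HSP70, differed by -0.08 ± 0.09. Whether the lists differed from one another was not tested.

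**Figure D3:**
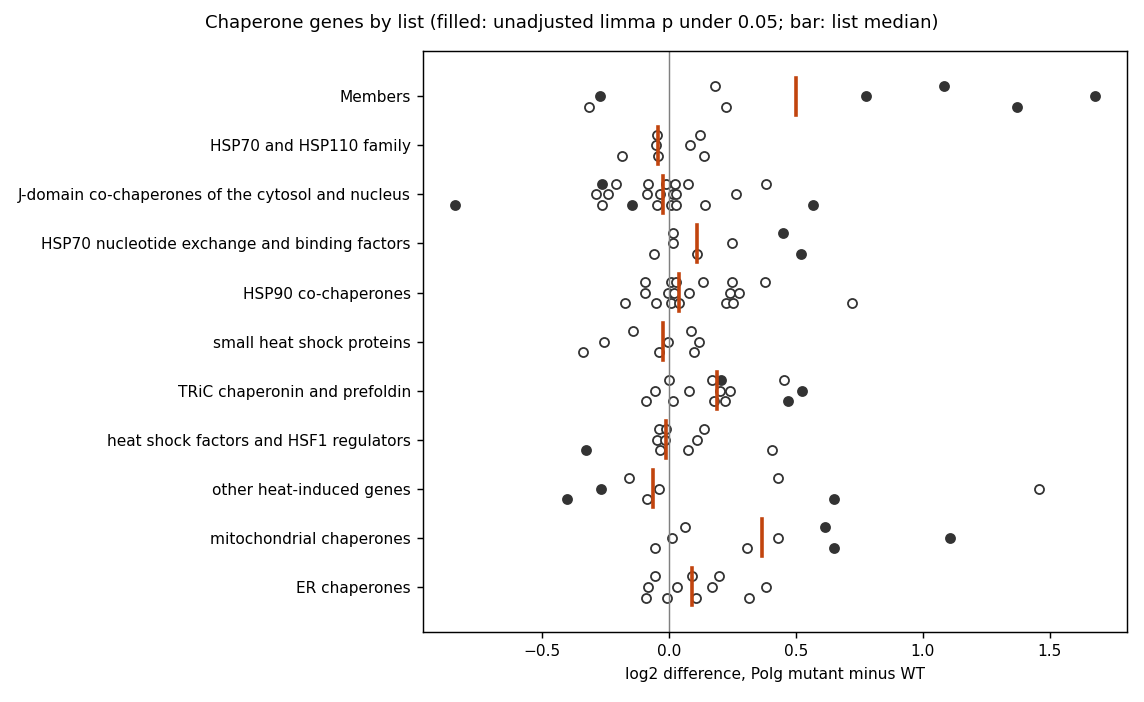
Log2 differences, Polg mutant minus WT, of each measured gene in the 8 heat shock genes and in 10 lists of related genes; filled points have an unadjusted limma p under 0.05 and the bar is the list median. The heat shock genes have a median of 0.50, the mitochondrial chaperones 0.37, and the cytosolic chaperone and co-chaperone lists between -0.04 and 0.19. Single genes spread from -0.32 to 1.68 in the heat shock genes and from -0.84 to 0.57 in the J-domain list. Hspd1 and Hspe1 are plotted in both the mitochondrial and the other heat-induced list.

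Transcripts of other cells and of handling were measured beside these results. Erythroid markers were high on all 5 arrays, with 9 of 15 listed genes measured. Their mean was 11.93, 11.99 and 11.95 in the Polg mutant arrays, against 12.31 and 12.11 in the WT arrays. Of the 9, 8 were lower on every Polg mutant array. Over all genes, 8.36% were higher and 9.73% lower without overlap, or 19.7% and 23.7% of genes with 5 distinct values. Slc4a1, the band 3 anion exchanger, read 13.38, 13.42 and 13.37 in the Polg mutant arrays, against 13.58 and 13.46 in the WT arrays. Neutrophil markers (15 of 15 measured) averaged 8.24, 8.78 and 7.02 in the Polg mutant arrays, against 7.83 and 6.86 in the WT arrays, and 0 of them separated the genotypes. Their levels were uneven. Elane and Mpo were among the brightest genes measured (level percentiles 98.9 and 98.8 of all genes), while Retnlg stood at 44.9. The samples were therefore not free of such transcripts. The part of the neutrophil markers in the differences of the heat shock genes was not tested.

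Immediate early genes, which respond within minutes to stress or to cell handling, were measured too. Of 21, 7 were higher and 3 lower on every Polg mutant array, where 8.36% and 9.73% of all genes were, or 19.7% and 23.7% of genes with 5 distinct values. The list averaged 7.38, 7.25 and 7.13 in the Polg mutant arrays, against 7.19 and 7.01 in the WT arrays. Jun was higher by 0.68 ± 0.09, Klf6 by 0.86 ± 0.20 and the feedback inhibitor gene Socs3 by 0.66 ± 0.10, while the phosphatase gene Dusp1 differed by -0.73 ± 0.23 (SE). The list was highest on Polg mutant replicate 1, as Hspa1a, Hspa1b, Hsph1 and Bag3 were. The part of cell handling in the heat shock genes' differences was not tested. Platelet markers (7 of 9 measured) averaged 6.38, 6.55 and 6.28 in the Polg mutant arrays, against 6.42 and 7.21 in the WT arrays. Of the 7, 1 was lower on every Polg mutant array, Gp9, where 9.73% of all genes were. Ppbp read 5.14 and 8.41 in WT replicates 1 and 2. Stromal and endothelial markers (8 of 8 measured) averaged 5.70, 5.84 and 6.12 in the Polg mutant arrays, against 5.78 and 6.42 in the WT arrays. WT replicate 2 was the highest array for both lists, and the part of these lists in the result was not tested either. Macrophage and monocyte markers (13 of 13 measured) averaged 6.36, 6.38 and 5.97 in the Polg mutant arrays, against 6.13 and 6.07 in the WT arrays. B cell markers (8 of 9 measured) averaged 5.37, 5.06 and 4.88 in the Polg mutant arrays, against 5.75 and 5.28 in the WT arrays. Markers of T and NK cells stayed between 4.30 and 4.42 on every array, below the array medians. Polg itself read 6.97 on all 5 arrays, which checks no label, since the mutation alters the protein and leaves the transcript in place.

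**Figure D4:**
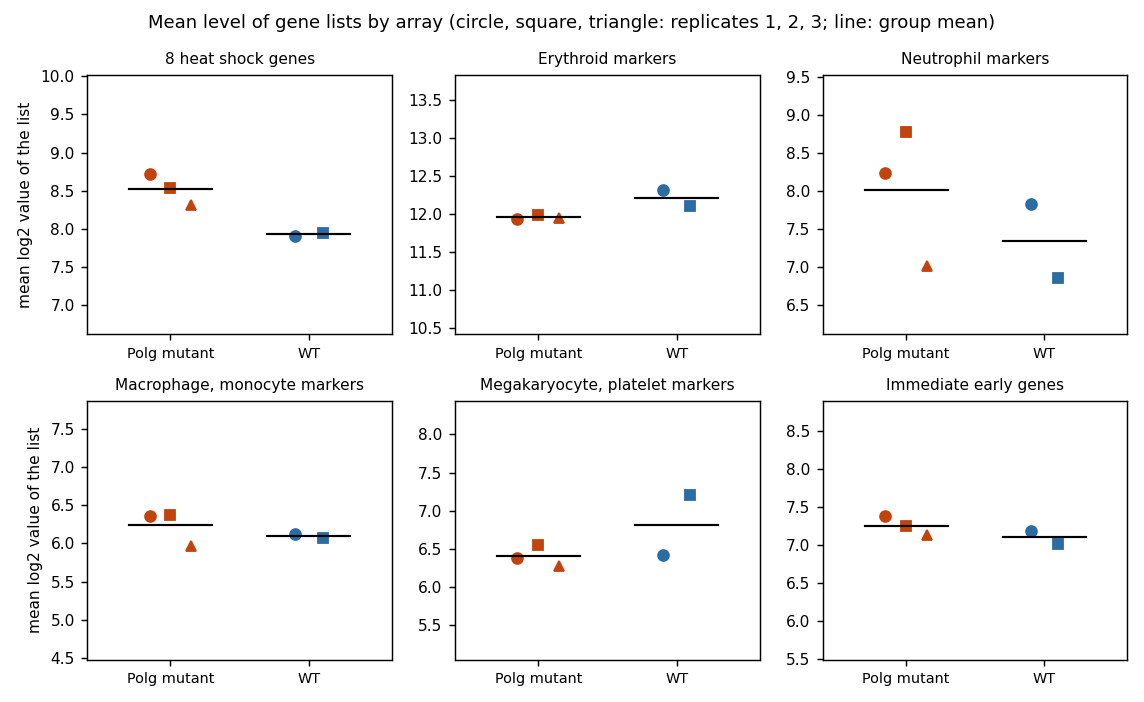
Mean log2 value on each array of the 8 heat shock genes, of 4 cell type marker lists and of the immediate early genes, with Polg mutant arrays left of WT arrays and a line at each group mean. The heat shock genes and the erythroid markers separate the genotypes, the first higher and the second lower in the Polg mutant, and the other lists overlap.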

How the data were processed

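The authors deposited log2 expression values for 41345 probe sets on 5 arrays, 1 column per array. Per the submitters' processing notes the tools were RMA and Partek 6.5, whose roles are not stated. The sources used here name no genome build. The deposited values were used as they stood, and signal over background was not known. The number of arrays limits the precision.

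Probe sets with 1 annotated symbol (23521; 1814 had several, 16010 none) gave 22180 genes, each by its brightest probe set. Ties occurred in 67.9% of genes. Genotype was tested with limma 3.58.1 in R 4.3.3 over all genes, two-sided, with Benjamini-Hochberg adjustment and a threshold of 0.05. Whether the p-values of this fit hold for genes with ties was not tested. Members and lists (201 of 223 listed symbols measured) were chosen with earlier results of these data known. The text names all members, genes of each chaperone list from the 4 of smallest p, and the 3 genes nearest to each member. Hspa5, Hsf2, Hmox1 and Slc4a1 were chosen after their values were seen. Alternatives were other scaling, probe set, filter, moderation and block choices, and leaving out single arrays.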

Additional observations from a re-analysis of the deposited data

How the results depend on the processing

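Each of the 8 members kept its direction in all 13 alternatives run for it (16 for Hspa8). The mean of all probe sets gave 0.014 for the inducible minus constitutive difference. The single dimmer Hspa8 probe sets, added after the data were seen, turned it to -0.108 (17434475), -0.147 (17548379) and -0.156 (17548744). This followed by construction, since Hspa8 itself then differed by 0.76 to 0.81. Leaving out single arrays gave 0.292 to 0.642. Over the genes with 5 distinct values, 73 genes were called higher and 41 lower, among them 1 member, Bag3 (limma adjusted p = 0.0470, range over its alternatives 0.0470 to 0.558), and 0 members were lower at an unadjusted p under 0.05. Renewed quantile normalization called 8 genes higher and 1 lower, the filter at a log2 of 6 called 6 and 5, which Hspa1a passed through its Polg mutant arrays alone, and a fit with no variance moderation 4 and 1. At an unadjusted p under 0.05, 2 members were higher and 0 lower with no moderation, and 0 were lower with an intensity trend. Without single arrays, 0 to 713 genes were called higher and 0 to 1068 lower, the highest without WT replicate 1, followed by 511 and 413 without WT replicate 2, and 0 members were called. At an unadjusted p under 0.05, 1 to 3 members were then higher and 0 to 1 lower: 1 higher without WT replicate 1, 2 without WT replicate 2 or Polg mutant replicate 1 or 2, and 3 without Polg mutant replicate 3. Those fits assume that a lone WT array varies like the other group. With the replicate number as a block, 2 members were higher at an unadjusted p under 0.05, 0 genes were called, and the inducible minus constitutive difference was 0.463. The numbers are shared by name alone, and deviations from the group mean correlated at 0.225 for number 1 and -0.262 for number 2, across 7112 genes that are not independent replicates. Across unlike numbers, Polg mutant replicate 3 correlated with WT replicate 2 at 0.398, and Polg mutant replicate 2 with WT replicate 1 at 0.262. The 2 WT arrays deviate by opposite amounts, so each Polg mutant array had the opposite correlation with the other WT array.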

Other observations

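Genes whose profiles lay nearest to each member were looked up among the 7112 genes with 5 distinct values, by Euclidean distance between values centred on the mean of the 5 arrays, in log2 units. Dnajb1 was nearest to Pola1, Mcm7 and Mcm2, genes of DNA replication, at distances of 0.0392, 0.0395 and 0.0612. Mcm7 read 10.65, 10.94 and 10.93 in the Polg mutant arrays, against 11.28 and 11.07 in the WT arrays. Hspa4l was nearest to Mcm3ap, Atp1b3 and the cohesin gene Smc3, at 0.0233, 0.0332 and 0.0347. Hsp90aa1 was nearest to Atp10a, to the nucleolar protein gene Ncl and to its own co-chaperone gene Stip1, at 0.0518, 0.0551 and 0.0683. The brightest Hspa8 probe set was nearest to Calr, a chaperone gene of the endoplasmic reticulum, at 0.0316, followed by A930006K02Rik and Ube2d2a at 0.0833 and 0.0859.

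The inducible genes that were higher, which also had the largest differences, had more distant neighbours. Values were centred and not scaled, so a profile with a larger difference lies further from most genes by this measure. Hspa1a was nearest to Rps19-ps3, Oaz2 and the ribosomal protein gene Rps28, at 0.154, 0.303 and 0.311. Hspa1b was nearest to the interferon-stimulated gene Oasl2, at 0.367, which read 11.52, 10.90 and 10.94 in the Polg mutant arrays, against 8.63 and 10.23 in the WT arrays. Oasl2 shared the wide gap between the WT arrays seen for Hspa1b, and Lgmn and Cox6b2 followed at 0.490 and 0.595. Hsph1 was nearest to Gm6003, the histocompatibility gene H2-K1 and Gm19399, at 0.159, 0.161 and 0.182. Bag3 was nearest to Cnbd2, Snora44 and Gm4945, at 0.151, 0.202 and 0.209. With 5 arrays many genes lie close together, and these distances describe the arrays alone.

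Of 8 other genes known to respond to heat, 1 was higher and 2 lower at an unadjusted limma p under 0.05, where 4.18% and 5.33% of all genes were. Hspd1, the mitochondrial chaperonin already counted among the mitochondrial chaperones, was higher by 0.65 ± 0.03 (SE). Dedd2 and Ier5, whose protein binds HSF1, differed by -0.40 ± 0.07 and -0.27 ± 0.07 (SE). Hmox1, the heme oxygenase gene, read 8.56, 5.88 and 5.88 in the Polg mutant arrays, against 5.22 and 5.42 in the WT arrays, a difference of 1.46 ± 1.04 (SE), with Polg mutant replicate 1 far above the other 4 arrays.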
